A study of Mus musculus with 10 samples.

Results

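The genes described here are 10 genes known for the epithelial to mesenchymal transition (EMT), measured in the uterus of mice that over-express human *HSD17B1* and of wild-type mice. They were selected by gene name, a rule that uses no measured value. Of the 29268 genes in the expression table, these were the transcription factors *Snai1*, *Snai2*, *Twist1*, *Twist2*, *Zeb1*, *Zeb2* and *Prrx1*, the cadherins *Cdh1* and *Cdh2*, and *Vim*. All 10 had enough reads to be tested, among 16993 genes tested in all.

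In EMT, epithelial cells lose the junctions that hold them together and take on features of mesenchymal cells. Factors of the SNAI, TWIST, ZEB and PRRX families bind DNA and, in epithelial cells, repress *Cdh1*, which encodes E-cadherin, while *Cdh2* (N-cadherin) and *Vim* (vimentin) mark the mesenchymal state. The exchange of E-cadherin for N-cadherin is called the cadherin switch. In the uterus, E-cadherin is made by the luminal and glandular epithelium, and vimentin and several of these factors are made by the stroma, so that a sample of the uterus holds both sides at once.

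RNA sequencing was done on the uterus of 5 HSD17B1TG and 5 WT females aged 4 months, and each mouse gave 1 library. HSD17B1TG mice are of the FVB/N strain and carry human *HSD17B1* cDNA, which encodes an enzyme that converts estrone to estradiol, under a CMV-enhanced chicken beta actin promoter that is active throughout the body. The line was kept heterozygous, and all mice ate soy-free chow. The methods of the study state for its histology that HSD17B1TG females do not cycle and that WT uteri were taken at random cycle phases, so the genotype and the cycle phase cannot be told apart. The human transgene was not analysed here. By ascending animal number, the transgenic mice are called TG1 to TG5 here and the wild types WT1 to WT5.

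The counts summed over genes ran from 16544864 to 19451715 per HSD17B1TG mouse and from 14817228 to 23271988 per WT mouse. Mitochondrial genes took 5.74, 1.94, 2.49, 6.87 and 7.57% of the counts in TG1 to TG5 and 2.58 to 3.37% in the WT mice, so that TG1, TG4 and TG5 lay above every WT mouse and TG2 and TG3 below. The lowest count of any of the 10 genes in any mouse was 46, for *Snai1* in TG4, where 3 counts are the limit that a count of 0 allows. Levels are given as FPKM (fragments scaled by transcript length and sequencing depth), which allow genes to be compared. Differences between genotypes are given as log2 fold changes, HSD17B1TG against WT, from edgeR's quasi-likelihood test on the counts. A gene was called changed when its mean exceeded 1 FPKM in at least 1 genotype, it differed by more than 2 times, and its Benjamini-Hochberg adjusted p over all genes tested was under 0.05.

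TG1 and WT4 were at the ends of their genotypes in several tissue markers. TG1 had the lowest summed level of 7 epithelial markers among the HSD17B1TG mice (640.5 FPKM, the others 1771 to 2969) and the highest of 7 smooth muscle markers (3824 FPKM, the others 434.9 to 1657) and of 7 stromal markers (1264 FPKM, the others 328.3 to 769.7). WT4 had the highest epithelial sum (1595 FPKM, the others 475.9 to 981.2) and the highest muscle sum (3190 FPKM, the others 234.1 to 1211) among the WT mice. None of these sums passed Dixon's gap test for a single outlying mouse (critical value 0.71 for 5 mice). Counts of called genes are given with all mice and without these mice.

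The sequences before the start sites of *Snai1*, *Twist2* and *Zeb2* are shown because these were the genes called changed, and because SNAI, TWIST and ZEB proteins bind short E-box sequences in promoters. The letters are those of RefSeq on GRCm38.p6, 250 bases upstream of the annotated start, on the strand of the gene. The stretch for *Snai1* lies at chr2:167537945-167538194 on the plus strand, that for *Twist2* at chr1:91801211-91801460 on the plus strand, and that for the most upstream of 4 annotated starts of *Zeb2* at chr2:45117443-45117692 on the minus strand. Capitals mark the letters CACCTG or CAGGTG, the E-box bound by SNAI and ZEB factors.
Snai1: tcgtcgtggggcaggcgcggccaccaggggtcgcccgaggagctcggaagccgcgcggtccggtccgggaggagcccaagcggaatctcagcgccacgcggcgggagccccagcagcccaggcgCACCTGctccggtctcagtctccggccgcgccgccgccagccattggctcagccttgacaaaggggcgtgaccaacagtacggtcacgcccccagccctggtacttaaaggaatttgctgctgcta
Twist2: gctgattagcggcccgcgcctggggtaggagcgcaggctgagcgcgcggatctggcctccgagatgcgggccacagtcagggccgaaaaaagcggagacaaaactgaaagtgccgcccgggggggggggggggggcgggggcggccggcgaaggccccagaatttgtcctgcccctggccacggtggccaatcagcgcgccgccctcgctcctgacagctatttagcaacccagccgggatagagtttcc
Zeb2: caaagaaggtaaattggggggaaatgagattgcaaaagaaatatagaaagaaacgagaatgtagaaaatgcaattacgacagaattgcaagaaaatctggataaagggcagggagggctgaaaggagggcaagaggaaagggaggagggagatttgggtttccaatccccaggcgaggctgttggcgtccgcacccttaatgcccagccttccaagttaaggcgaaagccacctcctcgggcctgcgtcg

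The window of *Snai1* held CACCTG once, 126 bases upstream of the start. CACCTG or CAGGTG was found on either strand in 17.2% of the 32851 windows of the same length before RefSeq starts. Windows were matched for 6 of the 10 genes, with 9 starts in all, and no window of *Twist1*, *Twist2*, *Prrx1*, *Vim* or *Zeb2* held these letters. Of the other E-box sequences, only CATCTG or CAGATG (14.4% of all windows) and CATATG (3.46%) were searched, on both strands, and no window of the 6 genes held them. These matches describe letters in a window and not bound sites.

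Of the 10 genes, 3 were called down in the HSD17B1TG uterus and none up in edgeR. Over all genes tested, 4.24% were called, 2.08% down and 2.16% up. At an unadjusted p under 0.05, 4 of the 10 were lower and 1 was higher, where 26.1% of all genes passed and 11.4% passed in the lower direction. In the higher direction 2493 of the 16993 genes tested passed. The log2 fold change was below 0 for 8 of the 10 genes, with a median of -0.70, and the median over all genes tested was 0.0021. The 3 genes called down were *Twist2*, *Snai1* and *Zeb2*.

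These calls depended on single mice. Without TG1, edgeR called 6 of the 10 genes, namely *Snai1*, *Snai2*, *Twist2*, *Zeb1* and *Zeb2* down and *Cdh1* up, where 7.75% of all genes were called. Without WT4 it called 5, *Snai1*, *Twist2*, *Zeb2* and *Vim* down and *Cdh1* up, where 8.96% of all genes were called. Without both mice, an alternative chosen after seeing the data, it called 7, with *Snai2*, *Zeb1* and *Vim* added to the 3 down and *Cdh1* up, where 11.9% of all genes were called. None of the 10 was called in edgeR without TG2 (0.664% of all genes called), TG4 (0.861%), TG5 (0.375%), WT2 (0.546%), WT3 (0.846%) or WT5 (0.626%), and in each of these fits 5 or 6 of the 10 had an unadjusted p under 0.05, where 20.8% to 23.1% of all genes had. Without WT1 only *Twist2* was called, where 1.42% of all genes were called, and without TG3, *Snai1* and *Twist2*, where 5.17% were. With all 10 mice, DESeq2's Wald test called 5 of the 10 genes (7.24% of all genes) and limma's voom none (3.41% of all genes), where 7 of the 10, and 26.1% of all genes, had an unadjusted p under 0.05. The 5 in DESeq2, the tool the study used, were the 3 named above, *Vim* down and *Cdh1* up.

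**Figure D1:**
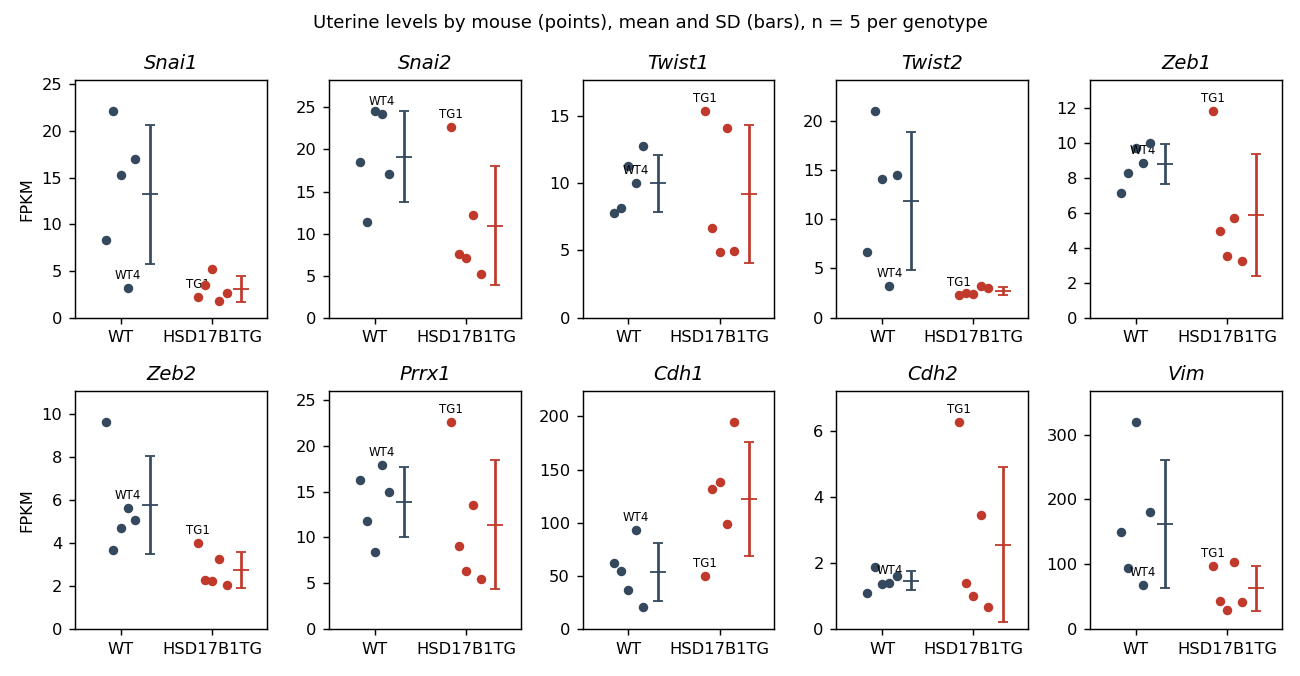
Level of each of the 10 genes in every uterus. The y axis of each panel is FPKM on a linear scale from 0, points are mice with TG1 and WT4 named, and bars are mean and SD (n = 5 per genotype). The 5 HSD17B1TG mice lie below all WT mice in *Twist2*, in the other genes the genotypes overlap, and TG1 is the highest HSD17B1TG mouse in *Snai2*, *Twist1*, *Zeb1*, *Zeb2*, *Prrx1* and *Cdh2*.

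Levels ran from near 1 FPKM to above 100. In HSD17B1TG the order of mean FPKM was *Cdh1*, *Vim*, *Prrx1*, *Snai2*, *Twist1*, *Zeb1*, *Snai1*, *Zeb2*, *Twist2* and *Cdh2*, and *Vim* and *Prrx1* were the only neighbours in this order whose ranges over mice did not overlap. In WT the order was *Vim*, *Cdh1*, *Snai2*, *Prrx1*, *Snai1*, *Twist2*, *Twist1*, *Zeb1*, *Zeb2* and *Cdh2*, and the only neighbours without overlap were *Zeb2* and *Cdh2*. *Snai1* and *Twist2* thus stood in ranks 5 and 6 in WT and in ranks 7 and 9 in HSD17B1TG, and *Cdh1* and *Vim* held the first places in both genotypes in exchanged order.

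*Twist2* (ENSMUSG00000007805, chromosome 1 from 91801461 to 91848028) encodes a basic helix-loop-helix factor of mesenchymal and skin development. It had 2.28, 2.52, 2.41, 3.18 and 3.06 FPKM in TG1 to TG5 and 6.68, 21.1, 14.1, 3.23 and 14.5 FPKM in WT1 to WT5. All HSD17B1TG mice lay below all WT mice, WT4 only just above them, and the WT mice spread far more widely. *Twist2* was the only one of the 10 genes without overlap between the genotypes, which 6.69% of all genes tested showed. Its level was 2.69 ± 0.404 FPKM (SD, n = 5) across the HSD17B1TG mice and 11.9 ± 7.04 across the WT mice, and its log2 fold change was -2.16 (standard error 0.43, 95% interval -3.10 to -1.21, adjusted p = 0.0257 in edgeR). Of its exon bases, 46.5% are shared with *Gm29100*, a gene on the other strand with 280 counts over all 10 mice, and the strand setting of the counting is not given in the sources used here, so part of the reads cannot be assigned to one gene.

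*Snai1* (ENSMUSG00000042821, chromosome 2 from 167538195 to 167542814) encodes Snail, a zinc finger repressor that binds the E-boxes of the *Cdh1* promoter. Its levels were 2.25, 3.51, 5.18, 1.76 and 2.62 FPKM in TG1 to TG5 and 8.36, 22.2, 15.3, 3.17 and 17.0 FPKM in WT1 to WT5. Every WT mouse except WT4 lay above all HSD17B1TG mice. The mean was 3.06 ± 1.35 FPKM (SD, n = 5) across the HSD17B1TG mice and 13.2 ± 7.48 across the WT mice, with a log2 fold change of -2.12 (standard error 0.49, 95% interval -3.20 to -1.03, adjusted p = 0.0376 in edgeR).

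*Zeb2* (ENSMUSG00000026872, chromosome 2 from 44983632 to 45117395) encodes a zinc finger and homeobox repressor. It had 3.98, 2.27, 2.22, 3.28 and 2.05 FPKM in TG1 to TG5 and 9.64, 3.70, 4.72, 5.63 and 5.10 FPKM in WT1 to WT5. The genotypes overlapped only through TG1, which lay above WT2. Its level was 2.76 ± 0.835 FPKM (SD, n = 5) across the HSD17B1TG mice and 5.76 ± 2.28 across the WT mice, and its log2 fold change was -1.06 (standard error 0.27, 95% interval -1.67 to -0.46, adjusted p = 0.0471 in edgeR). Without WT1, its highest mouse, the log2 fold change was -0.82 and *Zeb2* was not called.

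*Snai2*, *Zeb1*, *Twist1* and *Prrx1* did not pass the threshold with all mice. *Snai2* (ENSMUSG00000022676, chromosome 16 from 14705852 to 14709385) encodes Slug, the close relative of Snail, and had 22.7, 7.54, 7.10, 12.2 and 5.21 FPKM in TG1 to TG5 and 18.5, 11.4, 24.5, 24.2 and 17.1 FPKM in WT1 to WT5. TG1 lay within the WT range and 3 HSD17B1TG mice lay below all WT mice. Its log2 fold change was -0.81 (95% interval -1.66 to 0.035, adjusted p = 0.209 in edgeR) with all mice, and -1.26 without TG1 (adjusted p = 0.0291 in edgeR).

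*Zeb1* (ENSMUSG00000024238, chromosome 18 from 5591860 to 5775467) encodes the partner family member of *Zeb2*. It had 11.8, 4.93, 3.54, 5.67 and 3.25 FPKM in TG1 to TG5 and 7.13, 8.25, 9.73, 8.82 and 9.997 FPKM in WT1 to WT5. TG1 was the highest of all 10 mice and the other 4 HSD17B1TG mice lay below every WT mouse. The log2 fold change was -0.59 (95% interval -1.30 to 0.12, adjusted p = 0.269 in edgeR) with all mice and -1.02 without TG1 (adjusted p = 0.0183 in edgeR).

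*Twist1* (ENSMUSG00000035799, chromosome 12 from 33957671 to 33959829), the paralog of *Twist2* that acts in neural crest and limb mesenchyme, had 15.4, 6.71, 4.86, 14.1 and 4.93 FPKM in TG1 to TG5 and 7.77 to 12.8 FPKM in the WT mice with a median of 9.99. TG1 and TG4, with 5.74 and 6.87% mitochondrial counts, lay above all WT mice and the other 3 HSD17B1TG mice, TG5 with 7.57% among them, below. Its log2 fold change was -0.12 (95% interval -0.91 to 0.67, adjusted p = 0.859 in edgeR), an interval that holds changes of either sign.

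*Prrx1* (ENSMUSG00000026586, chromosome 1 from 163245119 to 163313710), a homeobox gene of mesenchyme, had 22.6, 9.04, 6.28, 13.6 and 5.50 FPKM in TG1 to TG5 and 8.36 to 17.9 FPKM in the WT mice with a median of 14.9. TG1 lay above all WT mice. The log2 fold change was -0.28 (95% interval -1.11 to 0.54, adjusted p = 0.676 in edgeR).

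**Figure D2:**
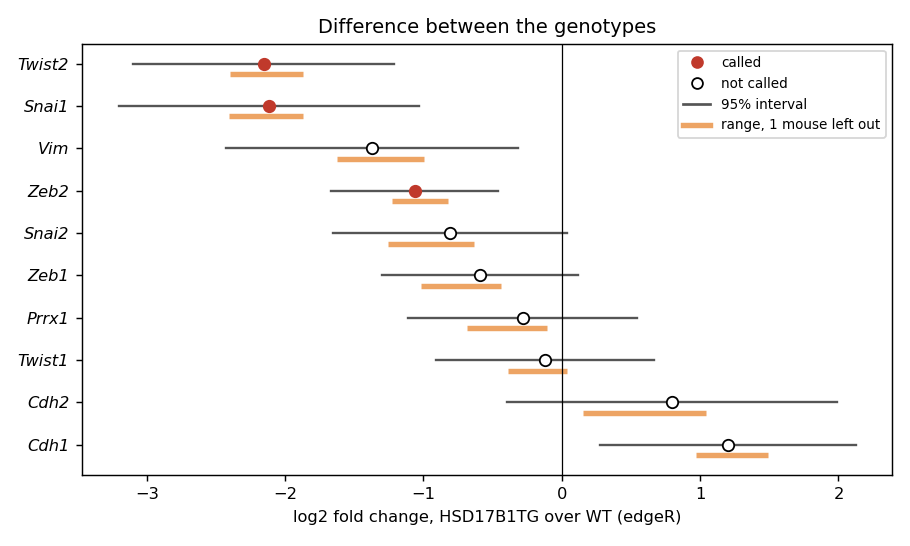
Log2 fold change of each of the 10 genes, HSD17B1TG against WT (x axis), from edgeR with all mice (filled points called, open points not called), with 95% intervals (thin lines) and the range of the value when 1 mouse is left out (thick orange lines). The 3 called genes *Twist2*, *Snai1* and *Zeb2* and *Vim* have intervals below 0, that of *Cdh1* lies above 0, and the orange line of *Cdh2* reaches down to 0.15.

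*Cdh1* (ENSMUSG00000000303, chromosome 8 from 106603351 to 106670246) encodes E-cadherin, the adhesion molecule of epithelial adherens junctions. Its levels were 49.4, 132, 138, 98.6 and 195 FPKM in TG1 to TG5 and 62.0, 54.1, 36.9, 92.8 and 21.04 FPKM in WT1 to WT5. Every HSD17B1TG mouse except TG1 lay above all WT mice, and TG1 was lower than WT1, WT2 and WT4. The mean was 122.5 ± 53.5 FPKM (SD, n = 5) across the HSD17B1TG mice and 53.4 ± 27.1 across the WT mice, and the log2 fold change was 1.20 (standard error 0.42, 95% interval 0.27 to 2.12), which did not pass the threshold (adjusted p = 0.103 in edgeR) with all mice. It was 1.40 without TG1 (adjusted p = 0.0418 in edgeR) and 1.49 without WT4 (adjusted p = 0.0425 in edgeR).

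*Vim* (ENSMUSG00000026728, chromosome 2 from 13573927 to 13582826) encodes the intermediate filament protein of mesenchymal cells. It had 97.0, 43.8, 28.6, 103 and 41.8 FPKM in TG1 to TG5 and 149, 94.6, 320, 68.1 and 180 FPKM in WT1 to WT5. WT1, WT3 and WT5 lay above all HSD17B1TG mice, and WT3 was the highest. The mean was 63.0 ± 34.6 FPKM (SD, n = 5) across the HSD17B1TG mice and 162 ± 98.3 across the WT mice, with a log2 fold change of -1.37 (standard error 0.48, 95% interval -2.43 to -0.32, adjusted p = 0.102 in edgeR).

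*Cdh2* (ENSMUSG00000024304, chromosome 18 from 16588877 to 16809246) encodes N-cadherin, found in nerve, muscle and mesenchymal cells. It had 6.26, 1.40, 0.995, 3.44 and 0.669 FPKM in TG1 to TG5 and 1.08, 1.88, 1.35, 1.39 and 1.604 FPKM in WT1 to WT5. TG1 and TG4 lay above all WT mice, and TG3 and TG5 below them. The log2 fold change was 0.80 (95% interval -0.39 to 1.99, adjusted p = 0.380 in edgeR) and was 0.15 without TG1. TG1 and TG4 were also the HSD17B1TG mice with the highest summed muscle markers (3824 and 1657 FPKM) and stromal markers (1264 and 769.7 FPKM). Both had a high mitochondrial share too, 5.74 and 6.87% of counts, as had TG5 with 7.57%, where *Cdh2* was lowest. The part of tissue makeup and of the mitochondrial share in the level of *Cdh2* was not tested.

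The FPKM of *Cdh1* exceeded those of *Cdh2* in every mouse. The ratio of *Cdh1* to *Cdh2* was 7.89, 94.4, 139, 28.6 and 291 in TG1 to TG5 and 57.2, 28.8, 27.3, 67.0 and 13.1 in WT1 to WT5. TG2, TG3 and TG5 had higher ratios than any WT mouse and TG1 a lower one than any WT mouse, so the genotypes overlapped, with medians of 94.4 and 28.8. The ratio of *Cdh1* to *Vim* was 0.509, 3.01, 4.82, 0.953 and 4.65 in TG1 to TG5 and 0.416, 0.572, 0.116, 1.36 and 0.117 in WT1 to WT5. *Cdh1* exceeded *Vim* in TG2, TG3 and TG5 and, among the WT mice, in WT4 alone.

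Markers of the epithelium and stroma were read beside these genes. In bulk samples, fewer cells of a type and less RNA per cell cannot be told apart. All 7 epithelial markers had a log2 fold change above 0, 5 of them with an unadjusted p under 0.05 and none called in edgeR or voom and 1 called up in DESeq2. In edgeR, 3 were called up without TG1, 4 without WT4, 6 without both and none without any other mouse. Of the 7 stromal markers, 4 were called down, the transcription factors *Hand2*, *Hoxa11* and *Hoxa10* and the receptor *Pdgfra*, with log2 fold changes of -1.998, -2.36, -2.14 and -1.99. The number of stromal markers called down was also 4 without TG1, WT4 or both, TG3 or WT1, and it was 2 without TG4, WT2 or WT3, 1 without TG2 or WT5, and 0 without TG5. The matrix genes *Lum*, *Col6a3* and *Dcn* among the stromal markers had log2 fold changes of 0.51, -0.30 and -0.10 and adjusted p-values in edgeR of 0.518, 0.817 and 0.915. Summed over the list, the stromal markers ranged from 328.3 to 1264 FPKM in HSD17B1TG and from 666.4 to 1023 in WT, and the epithelial markers from 640.5 to 2969 and from 475.9 to 1595.

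*Cdh1* was then set against the epithelial markers of its own mouse. On the log2 CPM scale (counts scaled to the library size, prior count 2), the level of *Cdh1* minus the mean of the 7 markers was 0.40, 0.15, 0.038, -0.053 and 0.17 in TG1 to TG5 and 0.10, 0.52, 0.78, 0.096 and -0.38 in WT1 to WT5. The WT mice enclosed the whole HSD17B1TG range. The means were 0.14 ± 0.17 (SD, n = 5) for the HSD17B1TG mice and 0.23 ± 0.44 for the WT mice. Their difference was -0.085 (2-sided exact permutation test, p = 0.698, adjusted over 2 such values 0.706). The difference turned sign, to 0.084 with summed marker FPKM and to 0.054 without WT3, and was -0.24 without WT5.

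*Vim* minus the mean of the 7 stromal markers, on the same scale, was 0.59, 0.48, 0.29, 1.57 and 0.95 in TG1 to TG5 and 1.10, 0.43, 2.11, 0.17 and 0.85 in WT1 to WT5. The genotypes overlapped along nearly their whole range, with means of 0.78 ± 0.51 (SD, n = 5) and 0.93 ± 0.75. The difference was -0.15 (two-sided exact permutation test, p = 0.706, adjusted 0.706). It was -0.81 when the markers were taken as summed FPKM (two-sided exact permutation test, p = 0.0952) and 0.14 without WT3. A p above the threshold does not show that the relative levels were alike.

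Set against the same stromal markers, *Twist2* and *Snai1* were lower in HSD17B1TG by 0.69 and 0.72 on the log2 scale, and *Zeb2*, *Snai2* and *Prrx1* differed by 0.16, 0.23 and 0.76 in the other direction, all with overlapping genotypes. *Twist1*, *Zeb1* and *Cdh2* were higher in every HSD17B1TG mouse than in any WT mouse, by 0.91, 0.44 and 1.53. These 3 of 10 genes compare with 23.1% of all genes tested that were higher without overlap on this scale. The mean of the stromal markers itself differed by -1.19 log2 CPM between the genotypes, with 4 of the 7 called down. Relative to the 7 muscle markers the mean differences had the other sign, -1.26 for *Twist1*, -1.73 for *Zeb1* and -0.64 for *Cdh2*, with overlapping genotypes.

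**Figure D3:**
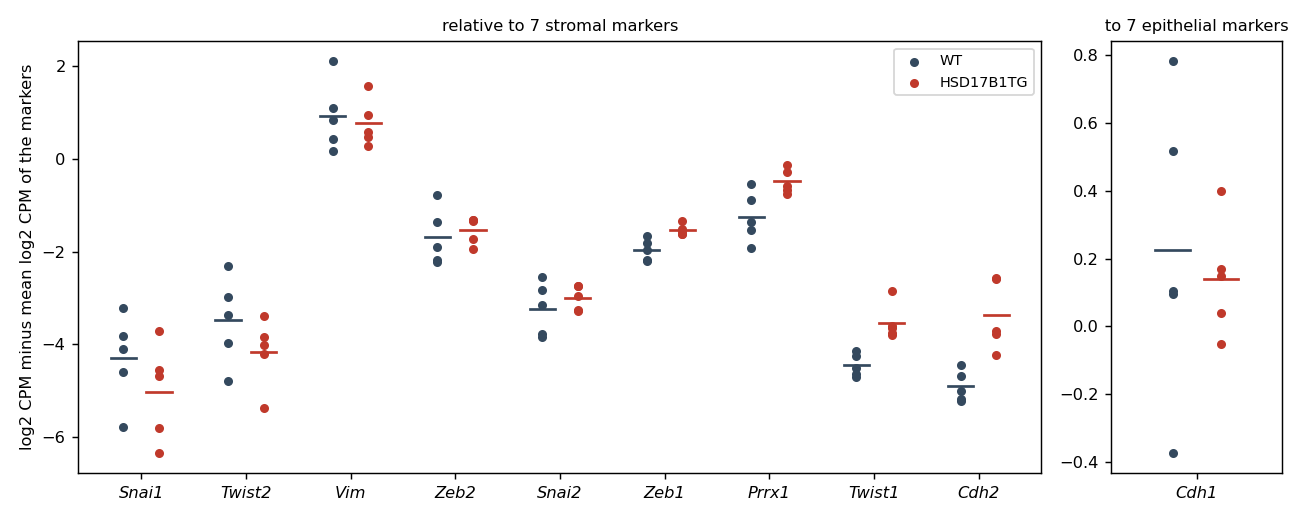
Log2 CPM minus the mean of 7 stromal markers for 9 of the genes (left) and minus the mean of 7 epithelial markers for *Cdh1* (right), 1 point per mouse with a line at the mean of each genotype (n = 5). The genotypes overlap in *Cdh1* and *Vim*, with mean differences of -0.085 and -0.15, and the HSD17B1TG points lie above all WT points in *Twist1*, *Zeb1* and *Cdh2*, whose mean differences were below 0 relative to muscle markers.

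The 10 genes did not vary together as 1 block. After the mean of each genotype was removed, *Snai1* and *Twist2* varied together over the 10 mice (Pearson r of log2 CPM 0.815), and the 10 pairs among *Twist1*, *Zeb1*, *Cdh2*, *Snai2* and *Prrx1* had r between 0.758 (*Snai2* and *Prrx1*) and 0.92 (*Zeb1* and *Cdh2*). *Vim* and *Zeb2* were also positive with each of these 5 genes, from 0.301 (*Prrx1* and *Vim*) to 0.741 (*Twist1* and *Vim*). Without TG1 these values ran from 0.042 (*Zeb1* and *Zeb2*) to 0.695 (*Twist1* and *Vim*). *Snai1* and *Zeb2*, both called down, had an r of -0.53. *Cdh1* ran against *Zeb1* (r = -0.76) and *Vim* (r = -0.71). These values describe 10 libraries that differed in tissue makeup and depth, and are not tests. Without TG1, *Snai1* and *Twist2* had an r of 0.812 and *Cdh1* and *Zeb1* of -0.59, and the 10 pairs lay between 0.494 (*Snai2* and *Prrx1*) and 0.906 (*Twist1* and *Zeb1*). Without the 2 mice farthest from the median of the first gene of each pair, *Snai1* and *Twist2* had 0.312, and the 10 pairs lay between 0.098 (*Twist1* and *Prrx1*) and 0.917 (*Twist1* and *Zeb1*), with 0.296 for *Snai2* and *Cdh2*, 0.326 for *Zeb1* and *Prrx1*, 0.338 for *Snai2* and *Prrx1* and 0.467 for *Twist1* and *Cdh2*. In the same way *Cdh1* and *Vim* had -0.80 and *Snai1* and *Zeb2* -0.79, and *Twist1* and *Zeb2* had -0.261.

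**Figure D4:**
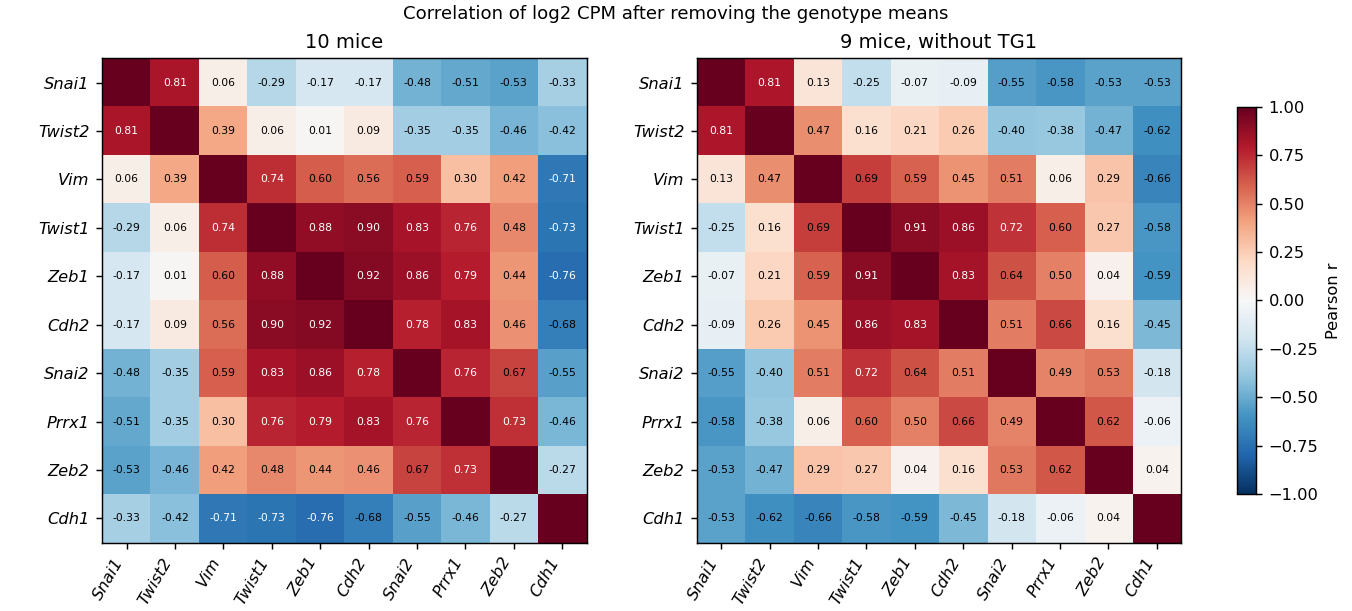
Pearson correlation of log2 CPM between the 10 genes after removing the genotype means, over all 10 mice (left) and without TG1 (right). The color runs from -1 to 1. *Twist1*, *Zeb1*, *Cdh2*, *Snai2* and *Prrx1* form a block of positive values, and *Vim* and *Zeb2* are also positive against each of them. *Snai1* and *Twist2* form a separate pair, and *Cdh1* is negative against the other 9 genes with all mice.

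Among 8049 protein-coding genes with a mean above 5 FPKM, those whose log2 CPM followed each gene most closely within genotypes were also listed. For *Cdh1* they were *Frk* (r = 0.991), a tyrosine kinase gene, *Dsp* (0.984), which encodes the desmosome protein desmoplakin, and *Rnf128* (0.982), a ubiquitin ligase gene. For *Cdh2* they were *Phldb2* (r = 0.978), *Rbms3* (0.977) and *P2rx6* (0.977), and for *Zeb1* they were *Emp3* (0.973), *Aff3* (0.969) and *Pygm* (0.968), the muscle glycogen phosphorylase gene. *Vim* was most like *Mef2a* (r = 0.972), *Ifnar2* (0.972) and *Ccs* (0.951), and *Snai2* most like *Flot1* (0.972), *Sdc3* (0.96) and *Hspb8* (0.955). The values are over 10 mice that differed in tissue makeup and depth, whose part in them was not tested.

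Other transcription factors tied to EMT were looked at as a list of 22 tested genes, of which 3 were called down and none up in edgeR, with a median log2 fold change of -0.36. At an unadjusted p under 0.05, 7 were lower and 4 higher, and DESeq2 called 3 of 24 down and 2 up. In edgeR, 4 were called down and 1 up without TG1, 3 and 1 without WT4, 7 and 2 without both, none without TG2 or TG5, and 1 or 2 down without any other mouse. *Tcf4*, which encodes a helix-loop-helix partner of the TWIST proteins, had the smallest p, with 5.37, 4.39, 4.02, 4.27 and 3.98 FPKM in TG1 to TG5 and 9.30, 12.8, 12.8, 6.09 and 14.4 FPKM in WT1 to WT5. The genotypes did not overlap in *Tcf4*, and edgeR gave it a log2 fold change of -1.34 (adjusted p = 0.0185). *Klf8*, a Kruppel-like repressor, and *Ets1* were the others called, with log2 fold changes of -1.93 and -1.13 and adjusted p-values in edgeR of 0.0224 and 0.0445. *Runx2* had -2.02 (adjusted p = 0.0306 in edgeR) but was below 1 FPKM in both genotypes.

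Of 18 tested factors that maintain the epithelial state, none was called in edgeR. At an unadjusted p under 0.05, 10 were higher and none lower, where 2493 of all 16993 genes tested were higher. DESeq2 called 4 of 20 up, voom called 2 of 18 up, and edgeR called 5 up without TG1, 3 without WT4, 9 without both, 1 without TG3 and none without any other mouse. The median log2 fold change was 0.87. *Grhl3*, a grainyhead factor of surface epithelium, had 2.99 ± 2.61 FPKM (SD, n = 5) across the HSD17B1TG mice and 0.194 ± 0.277 across the WT mice, with an adjusted p of 0.0503 in edgeR. *Elf3* and *Ovol2*, the latter a repressor of *Zeb1* in epithelia, had log2 fold changes of 2.37 and 1.71 and adjusted p-values in edgeR of 0.0804 and 0.0888. The study reported *Elf3* and *Klf4*, both in this list, as higher in HSD17B1TG with DESeq2. It also found both higher by RT-qPCR, a separate measurement, in more mice.

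Genes that the EMT factors are known to repress were represented by 25 epithelial genes of junctions and polarity. Of all 16993 genes tested, 8525 had a log2 fold change above 0, 2493 with an unadjusted p under 0.05 and 367 called up in edgeR. All 25 epithelial genes had a log2 fold change above 0, with a median of 1.15, 17 with an unadjusted p under 0.05 and 2 called up in edgeR. The called genes were *Spint2*, a membrane protease inhibitor gene, and *Crb3*, which encodes an apical polarity protein, with log2 fold changes of 1.58 and 1.28 and adjusted p-values in edgeR of 0.0345 and 0.0447. *F11r*, a tight junction adhesion molecule gene, had 1.10 with an adjusted p of 0.0520 in edgeR. Without TG1, 16 of the 25 were called up, without WT4, 9, and without both, 18. Without TG3, 1 was called, and without TG2, TG4, TG5, WT1, WT2, WT3 or WT5 none was, while DESeq2 called 11 and voom 1 with all mice. The list shares its source tissue with the epithelial markers, whose sums are given above, and *Cldn3* and *Cldn7* are in both lists.

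Of 38 mesenchymal genes, 8 were called down and none up in edgeR, with a median of -0.77, and 17 were lower and 5 higher at an unadjusted p under 0.05. Those called were the matrix genes *Vcan*, *Fbn1*, *Col3a1*, *Fstl1* and *Tgfbi*, the surface proteins *Cd44* and *Thy1*, and the ligand *Wnt5a*, with log2 fold changes between -2.27 and -1.11. *Col3a1*, a fibrillar collagen chain, had 188 ± 104 FPKM (SD, n = 5) across the HSD17B1TG mice and 512 ± 96.1 across the WT mice, without overlap. *Vcan*, which encodes the proteoglycan versican, had 1.89 ± 0.735 FPKM (SD, n = 5) and 7.12 ± 3.03, also without overlap. With all mice, DESeq2 called 10 of 39 down and 1 up, and voom 5 of 38 down. In edgeR, 17 of the 38 were called down without TG1, 8 down and 1 up without WT4, and 17 down and 1 up without both. Without TG3, 3 were called down, without TG2 or WT5, 1, and without TG4, TG5, WT1, WT2 or WT3 none.

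Among 11 other cadherins tested, only *Cdh16*, the cadherin of tubular epithelia, was called, with 0.166 ± 0.213 FPKM (SD, n = 5) across the HSD17B1TG mice and 5.50 ± 6.61 across the WT mice (log2 fold change -5.04, adjusted p = 0.0412 in edgeR), with overlapping genotypes. In edgeR, 2 were called down without TG1 or without WT4 and 5 without both, 1 without TG3, and none without any other mouse, and voom called none. *Cdh23* and *Cdh10* followed by p, with log2 fold changes of 1.65 and -2.84 and adjusted p-values in edgeR of 0.0750 and 0.0953. None of 15 genes of the catenin complex and of cadherin turnover was called in edgeR, and DESeq2 and voom called none. In edgeR, 2 were called up without WT4 and 2 without both TG1 and WT4, and none without any other mouse. At an unadjusted p under 0.05, 5 were higher and none lower, where 2493 of all 16993 genes tested were higher. *Numb*, *Ctnnd1* (p120 catenin) and *Jup* (plakoglobin) had log2 fold changes of 0.91, 0.70 and 1.00 and adjusted p-values in edgeR of 0.0509, 0.0917 and 0.104.

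Of 11 other intermediate filament genes tested, none was called in edgeR or voom, DESeq2 called 1 down, and at an unadjusted p under 0.05, 3 were higher and 1 lower. In edgeR, 1 was called up without TG1, 2 up and 1 down without WT4, 4 up and 1 down without both, and none without any other mouse. The lower one was *Nes*, nestin, which pairs with vimentin in filaments, at -1.10 (adjusted p = 0.0832 in edgeR). The keratin genes *Krt18* and *Krt8* were at 0.85 and 1.24 with adjusted p-values in edgeR of 0.131 and 0.146. Among 23 tested ligands, receptors and effectors that can start EMT, 2 were called down and none up, *Wnt5a* (-2.27, adjusted p = 0.0246 in edgeR) and *Hgf* (-2.86, adjusted p = 0.0270 in edgeR), and the median log2 fold change was 0.024. At an unadjusted p under 0.05, 6 were lower and 5 higher, and DESeq2 called 2 of 24 down and none up. In edgeR, 4 were called down without TG1, 2 without WT4, 5 down and 1 up without both, 2 down and 1 up without TG3, 1 down without TG2 or WT1, and none without TG4, TG5, WT2, WT3 or WT5. *Wnt5a* is counted in the mesenchymal list too, and *Ctnnb1* in the catenin list. *Cdh3* is counted among the other cadherins and the epithelial genes, and *Cdh11* among the other cadherins and the mesenchymal genes. *Krt7*, *Krt8*, *Krt18* and *Krt19* are also epithelial markers, *Des* a muscle marker and *Cdh5* an endothelial marker. *Pdgfa* followed by p, at 0.94 (adjusted p = 0.0678 in edgeR).

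**Figure D5:**
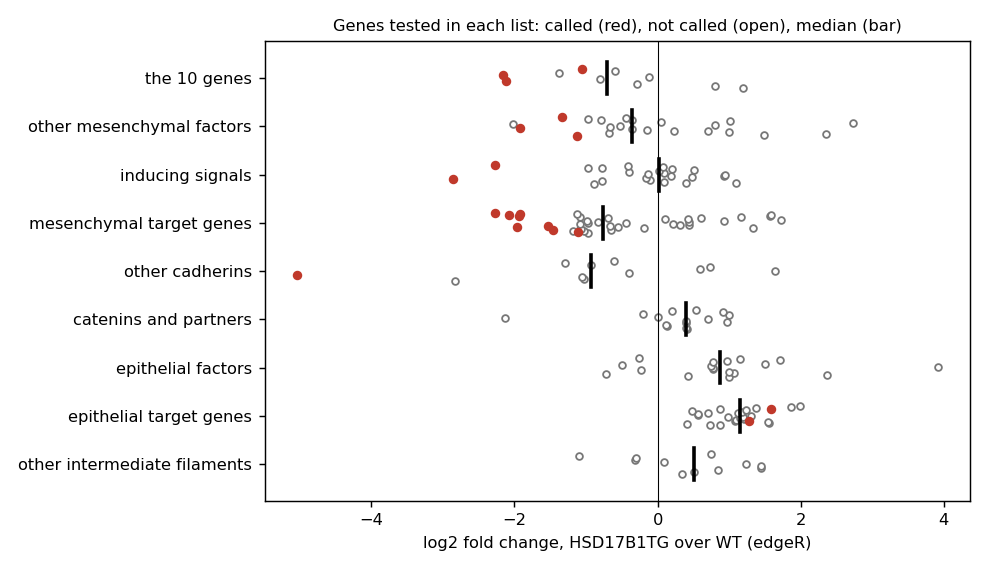
Log2 fold change, HSD17B1TG against WT, of every tested gene of the 10 EMT genes and of the lists around them (red points called, open points not called, black bars list medians). The 25 epithelial genes all lie above 0 with a median of 1.15, and the medians of the 10 genes and of the 38 mesenchymal genes are -0.70 and -0.77.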

How the data were processed

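Uterine RNA of 5 HSD17B1TG and 5 WT mice was sequenced in paired 150 bp reads, and the authors mapped them with HISAT2 2.0.5 to the mouse genome (GRCm38, Ensembl 94). The authors deposited 1 table with a raw count per gene and mouse. It also holds the deposited signal, which is the count divided by a DESeq2 size factor, and the deposited FPKM, which were scaled by the same size factor and not by the total of the mouse. Which program made the counts, and whether it used strand, is not given in the sources used here. The authors' columns of log2 fold changes and p-values, and the deposited tables of enriched terms, were not used.

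The main test was that of edgeR 4.0.16 (R 4.3.3, filterByExpr, TMM, quasi-likelihood test, Benjamini-Hochberg adjustment over 16993 genes, all 10 mice, no covariate). Called genes had an adjusted p under 0.05, differed by over 2 times and had a mean above 1 FPKM in at least 1 genotype, thresholds taken from the study. The study applied these thresholds to DESeq2. Here DESeq2 called 906 genes up and 666 down, the numbers the study reported, and 5 of the 10 genes were called. Alternatives were DESeq2 1.42.0, limma 3.58.1 on voom weights, on log2(FPKM + 1) and on log2(FPKM + 0.1), other scalings, filters and thresholds, each mouse left out, and TG1 and WT4 left out together, which was chosen after seeing the data. The tests were tested on simulated data. The genes, lists and tests were chosen with earlier results of these data known.

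Named were all 10 genes, the 3 genes of each list with the smallest p, every list gene called, markers beside a result they move with, and the 3 genes most correlated with *Cdh1*, *Cdh2*, *Vim*, *Zeb1* and *Snai2*. GENCODE M21 gave the overlaps between genes. Markers of endothelium, leucocytes, mesothelium, Schwann cells, oviduct, ovary and adipocytes were summed too. Total counts of 14817228 to 23271988 put the floor of 3 counts at 0.129 to 0.202 CPM, for counting error only. Animals were separate, so the tests set differences against the spread between mice.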

Additional observations from a re-analysis of the deposited data

Results flagged for a closer look

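With a gap test for single samples (Dixon's ratio, critical value 0.71 for 5 mice) over 44 groups of values, 2 values stood out, and chance flags about 1 in 20 groups. *Zeb1* was 11.8 FPKM in TG1 and 3.25 to 5.67 FPKM in the other HSD17B1TG mice (ratio 0.718). The summed adipocyte markers were 25.1 FPKM in TG4 and 0 to 2.85 FPKM in the other HSD17B1TG mice (ratio 0.886).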

How the results depend on the processing

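The number of genes called was 721 with edgeR on all mice and 1572 with DESeq2. It ranged from 65 to 1554 when 1 mouse was left out and was 2020 without both TG1 and WT4. Of the 10 genes, 3 were called in edgeR, 5 in DESeq2 and 0 in limma's voom (7 at an unadjusted p under 0.05), 0 to 6 with 1 mouse left out, and 7 without both mice. Scaling by library totals moved the median of all genes to -0.17 and the calls to 286 up and 494 down, against 367 and 354. Over the 10 fits that left out 1 mouse, the log2 fold change lay between -2.40 and -1.87 for *Twist2* and for *Snai1*, called in 4 and 3 of the fits, and between -1.23 and -0.82 for *Zeb2*, called in 2. *Twist1* ranged from -0.39 to 0.036 and changed sign, to 0.018 without TG3 and 0.036 without TG5.

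*Cdh1* relative to epithelial markers changed sign to 0.084 with summed marker FPKM and ranged from -0.24 to 0.054 with 1 mouse left out. *Vim* relative to stromal markers ranged from -0.35 to 0.14, and was -0.81 with summed marker FPKM (two-sided exact permutation test, p = 0.0952). Both were above 0 without WT3, at 0.054 and 0.14. Causes were not tested. The 3 called genes lost the threshold in 27 of their 57 alternatives, *Snai1* in 8, *Twist2* in 7 and *Zeb2* in 12 of 19 each. The other 7 genes gained it in 11 alternatives, and 2 values, both of *Twist1*, changed sign. The labels name no batch, and their numbers do not pair mice across genotypes. No paired analysis was possible because the genotypes share no replicate number from the labels.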

Other observations

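Markers of other cell types in these uteri gave the following sums. Endothelial markers were 14.4 to 57.6 FPKM in HSD17B1TG and 36.1 to 91.0 in WT, and leucocyte markers 68.2 to 89.9 and 51.4 to 111. Of the 6 leucocyte markers, *Laptm5* was called up (log2 fold change 1.28, adjusted p = 0.0312 in edgeR). The other 5 had log2 fold changes below 0, 3 of them (*Ptprc*, *Cd52* and *Coro1a*) with an unadjusted p under 0.05 and none called in edgeR with all mice. The list median was -0.72. DESeq2 called 1 up and 2 down, and voom 1 up. In edgeR, 1 up and 3 down were called without WT4 and without both TG1 and WT4. Only 1 up was called without TG1, TG3 or WT1, and none without any other mouse. Schwann cell markers were 11.4 to 23.0 FPKM in HSD17B1TG and 2.08 to 6.27 in WT, without overlap, and mesothelial markers 13.2 to 65.1 and 0.585 to 24.7. Oviduct markers were 4.05 to 15.4 FPKM and 6.68 to 10.8, ovary markers 7.97 to 20.1 and 7.62 to 14.2, and adipocyte markers 0 to 25.1 and 0 to 6.17. Their part in the levels of the 10 genes was not tested.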
